A study of Homo sapiens with 8 samples.

Results

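The 51 genes described here encode the machinery of the lysosome and of autophagy. They were listed by name and looked up by symbol in both deposited tables, and all 51 were found among the 16726 genes of each table. They comprise 15 genes of the vacuolar proton pump (V-ATPase), 8 cathepsins, 15 other hydrolases and their activators, 8 lysosomal membrane and lipid export proteins, and 5 genes of autophagy and its regulator TFEB. Poly(A) RNA was sequenced in 8 libraries, 2 in each of 4 groups, from the leukaemia cell lines NB4, of promyelocytic origin, and MM6 (MonoMac 6), of monocytic origin. In the labels the disease of either line is acute monocytic leukemia. Cells of each line had received a lentiviral pLKO.1 hairpin against METTL14 (shM14, labelled shM14-#2) or the non-specific hairpin shNS, and all 4 groups had been kept in puromycin at 0.5 µg/mL for 2 passages. Only 1 METTL14 hairpin was used, and the labels do not say whether the 2 libraries of a group came from separate cultures. All p-values therefore measure the spread between these libraries.

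Lysosomes break down proteins, lipids, glycans and nucleic acids delivered by endocytosis, phagocytosis and autophagy. The V-ATPase pumps protons into their lumen, which activates the acid hydrolases, and autophagosomes bring cytoplasmic cargo to them. The transcription factor TFEB and its relatives bind a palindromic promoter element of many lysosomal genes, known as the CLEAR element. Phagocytes, and macrophages above all, are rich in lysosomes. METTL14 pairs with METTL3 in the enzyme that methylates adenosines of RNA (m6A), and the question of the study was what changes in leukaemia cells when it is lowered.

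METTL14 had 14.1 and 12.5 RPKM (reads scaled to gene length and library depth) in the NB4 controls and 8.35 in both NB4 shM14 libraries. It had 12.5 and 13.4 RPKM in the MM6 controls and 6.54 and 6.55 with shM14. Its log2 change of -0.61 in NB4 passed the limma test (adjusted p = 0.0024), and that of -0.88 in MM6 did not (adjusted p = 0.088). In the authors' deposited table it was lower in MM6 (-0.94, adjusted p = 0.0049 by their test). The limma fit of 1 effect over both lines gave -0.75 (adjusted p = 0.0032). Depth was 23272126 to 28814911 reads per library over the 16726 genes of the tables. Replicates were closer in NB4 than in MM6: the SD across genes of the log2 difference between 2 libraries of a group was 0.13 and 0.15 in NB4 and 0.34 and 0.37 in MM6. The promyelocyte marker MPO lay between 2117 and 2490 RPKM in NB4 and between 35.1 and 103 in MM6. Of 6 promyelocyte granule genes, MPO was the 1 called lower in MM6 controls than in NB4 controls, and 5 were called higher. Of all genes 36.8% were lower and 34.3% higher in that comparison. The monocyte marker LYZ lay between 19.8 and 84.6 RPKM in NB4 and between 5836 and 14301 in MM6. Of 9 markers of other blood lineages, 3 were in the tables. Among these CD3D, a T cell receptor chain, had 45.0 to 60.6 RPKM in NB4 and at most 0.0566 in MM6.

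Promoters are shown first because the CLEAR element connects many of these genes. Windows from 250 bases before to 50 after the transcription start (RefSeq, GRCh38.p14) were on file for 38 of the 51 genes. The 13 without an entry were ATP6V0E1, ATP6V1A, ATP6V1B2, ATP6V1C1, ATP6V1H, CTSB, CTSS, HEXA, MANBA, PSAP, LGMN, ASAH1 and LAMP2. The letters CACGTG, the core of the element, occurred in 10 of the 38 windows (26.3%) and in 9.66% of the 12714 windows of genes in the deposited tables. The extended form TCACGTGA was found in 6 of 38 (15.8%, against 1.69%). The longer form contains the shorter, and each is its own reverse complement, so both strands were covered. A match describes the letters and is not evidence of binding. The stretches below hold every CACGTG in the 250 bases upstream of 6 genes whose RNA rose in NB4 and of GAA, whose RNA did not pass the test there. They are written 5′ to 3′ on the strand of the gene, and capitals mark the box with the adjoining bases that continue the 10-base CLEAR palindrome.
CTSA, chr20:45891268-45891334, + strand: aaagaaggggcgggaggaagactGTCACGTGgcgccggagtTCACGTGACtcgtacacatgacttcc
CTSD, chr11:1763944-1763999, - strand: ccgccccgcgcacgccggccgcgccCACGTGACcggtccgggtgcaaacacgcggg
LAMP1, chr13:113297022-113297127, + strand: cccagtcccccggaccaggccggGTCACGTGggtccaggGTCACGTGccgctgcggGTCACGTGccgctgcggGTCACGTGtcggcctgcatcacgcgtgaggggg
LAMP1, chr13:113297186-113297238, + strand: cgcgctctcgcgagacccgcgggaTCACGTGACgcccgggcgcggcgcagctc
MCOLN1, chr19:7522558-7522623, + strand: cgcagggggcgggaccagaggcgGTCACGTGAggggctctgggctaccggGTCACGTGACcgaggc
ATP6V0D1, chr16:67481186-67481241, - strand: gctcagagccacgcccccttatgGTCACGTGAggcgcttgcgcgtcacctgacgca
ATP6V1G1, chr9:114587686-114587741, + strand: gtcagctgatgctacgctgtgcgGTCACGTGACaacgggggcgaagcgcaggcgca
GAA, chr17:80101480-80101580, + strand: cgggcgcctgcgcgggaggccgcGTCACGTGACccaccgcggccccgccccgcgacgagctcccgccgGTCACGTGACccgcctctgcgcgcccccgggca
LAMP1 held 5 boxes in its 250 upstream bases, 4 of them in a repeated array between 192 and 142 bases before the start. CTSA held 2, at 42 and 25 bases, and CTSD 1, at 47 bases. GAA held 2 boxes, at 76 and 31 bases, both continued over the whole palindrome. The other 3 windows with the core letters belonged to ATP6V0B, NEU1 and CD63. Of the members with a window, the core was in 8 of 24 that rose in NB4, in 0 of 4 that fell and in 2 of 10 that did not pass.

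In NB4, most of the 51 genes were higher with the METTL14 hairpin. LGMN did not reach the minimum of 1 RPKM in any NB4 library, and of the 50 genes tested 29 rose, 4 fell and 17 did not pass (limma on log2(RPKM + 1), adjusted p under 0.05 over all genes). Among all 11531 genes tested 22.1% rose and 25.2% fell, 47.4% in all. The median change of the 50 genes was 0.23 in log2, against -0.01 over all genes tested. The shM14 libraries lay above both controls in 38 of the 50 (37.2% of all genes) and below both in 8 (40% of all genes). V-ATPase genes rose in 12 of 15, cathepsins in 5 of 8, hydrolases in 6 of 14 with 2 falling, membrane and lipid export genes in 4 of 8 with 2 falling, and autophagy genes in 2 of 5. With all 8 libraries in 1 model 9 rose and 1 fell, where 12.9% of all genes were called. When either shM14 library was left out, fewer members and fewer of all genes were called. The median change was then 0.22 without shM14 replicate 1, against -0.004 over all genes. It was 0.23 without shM14 replicate 2, against -0.02 over all genes. In bulk RNA, more or fewer cells of a type and more or less RNA per cell cannot be told apart.

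**Figure D1:**
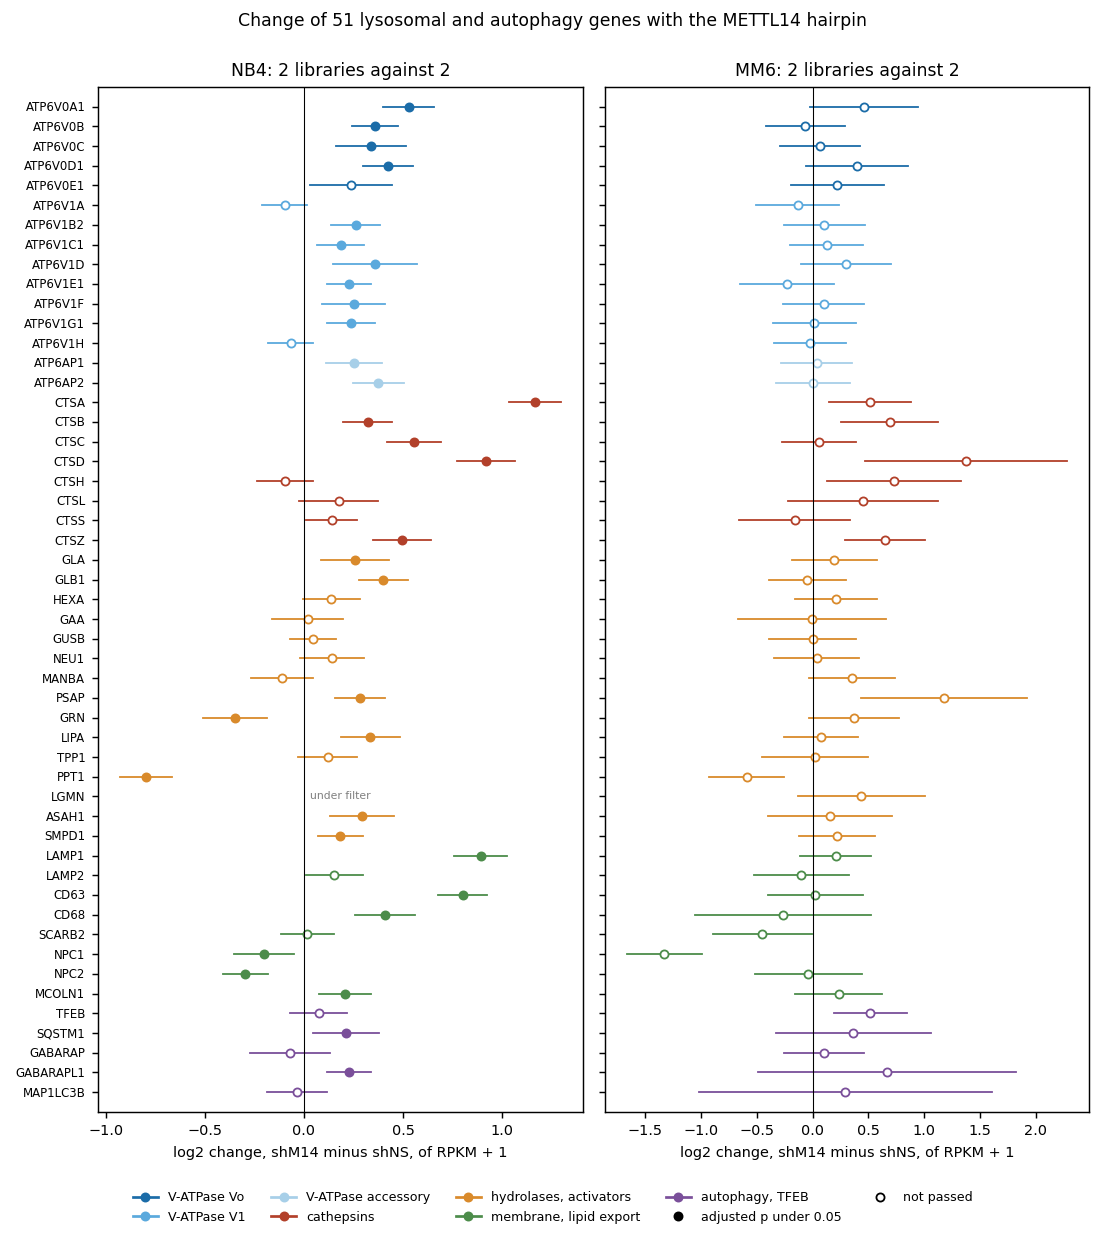
Log2 change of RPKM + 1, shM14 minus shNS, of the 51 genes in NB4 (left) and MM6 (right, with a wider axis); points are estimates, bars 95% confidence intervals, and filled points passed the adjusted threshold. NB4 has 33 filled points, led by CTSA at 1.16 and by PPT1 at -0.80, and MM6 has none, with wide intervals for genes such as CTSD and MAP1LC3B.

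The V-ATPase consists of a membrane sector (Vo), through which protons pass, and a cytosolic sector (V1), which hydrolyses ATP. ATP6V0A1, a large Vo subunit, had 8.85 and 8.91 RPKM in the NB4 controls and 12.9 and 13.7 with shM14, a log2 change of 0.53 (SE 0.05, adjusted p = 0.0017). ATP6V0D1, which joins the rotor to the membrane ring, had 29.8 and 30.1 RPKM and then 41.5 and 39.6 (0.42, adjusted p = 0.0028). For both genes each shM14 library lay above each control. The ring subunits ATP6V0B and ATP6V0C rose by 0.36 and 0.34. ATP6V0E1 also had groups that did not overlap, but it did not pass (0.24, adjusted p = 0.062).

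Of the 8 V1 subunits 6 rose, by less than the leading Vo genes. ATP6V1D, a part of the central stalk, rose by 0.36, the catalytic sector's ATP6V1B2 by 0.26, ATP6V1F by 0.25, ATP6V1G1 by 0.24, ATP6V1E1 by 0.23 and ATP6V1C1 by 0.19. ATP6V1A, the catalytic subunit, had 14.6 and 14.8 RPKM in controls and 13.6 and 13.7 with shM14 (-0.10, adjusted p = 0.13). ATP6V1H, a regulatory subunit, was at -0.07 (adjusted p = 0.27). These 2 subunits lay lower in every shM14 library, opposite to the other 13 V-ATPase genes. The accessory proteins ATP6AP1 (0.25) and ATP6AP2 (0.38), which assist assembly of the pump, rose. Calls of small changes were fragile: ATP6V1C1, ATP6V1F and ATP6AP1 were each lost when any of 3 NB4 libraries was left out, and ATP6V1D, ATP6V1E1 and ATP6V1G1 without either shM14 library. ATP6V1B2 was lost without shM14 replicate 1 and ATP6V0C without shM14 replicate 2, with adjusted p of 0.077 and 0.062. The summed RPKM of the 15 genes was 579 and 580 in controls and 700 and 705 with shM14.

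The 2 largest rises in NB4 were those of cathepsins. CTSA, a carboxypeptidase that also protects the glycosidases GLB1 and NEU1, had 13.0 and 13.2 RPKM in the NB4 controls and 31.5 and 29.8 with shM14. Its change was 1.16 (SE 0.05, adjusted p = 3.3e-04), or 2.34-fold by the means. CTSD, the main aspartic protease of lysosomes, had 32.0 and 34.8 RPKM and then 64.5 and 63.7 (0.92, adjusted p = 6.4e-04). CTSC, which activates serine proteases of myeloid granules, had 18.5 and 17.3 RPKM and then 26.6 and 27.0 (0.55, adjusted p = 0.0017). CTSZ, a carboxypeptidase, had 26.0 and 24.8 RPKM and then 35.0 and 37.4 (0.49, adjusted p = 0.0028). The cysteine protease CTSB rose by 0.32. In all 5 genes the groups did not overlap, and the calls held without any single NB4 library. CTSH, the most abundant cathepsin of NB4, had 125 and 134 RPKM in controls and 122 and 120 with shM14 (-0.10, adjusted p = 0.21). The endopeptidases CTSL (0.18) and CTSS (0.14) did not pass either. Among the 6 cathepsins with a promoter window CTSA and CTSD held a box, and CTSC, CTSZ, CTSH and CTSL held none.

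Among the hydrolases the changes were mixed. PPT1, which removes palmitate from proteins and whose loss causes a neuronal ceroid lipofuscinosis, had 47.9 and 45.5 RPKM in the NB4 controls and 26.9 and 26.0 with shM14. It fell by 0.80 on the log2 scale (SE 0.05, adjusted p = 6.7e-04), the largest fall of the 50 genes tested in NB4. GRN, the precursor of granulins, had 96.7 and 107 RPKM and then 80.5 and 78.8 (-0.35, adjusted p = 0.011). GLB1, the acid beta-galactosidase, had 20.4 and 21.2 RPKM and then 28.3 and 27.4 (0.40, adjusted p = 0.0033). LIPA, which releases cholesterol from its esters, went from 20.7 to 26.4 RPKM by the means without overlap (0.34, adjusted p = 0.0088). The sphingolipid enzymes and activator ASAH1 (0.29), PSAP (0.28), GLA (0.26) and SMPD1 (0.18) rose as well, but GLA and SMPD1 were lost without any of 3 libraries, and PSAP (adjusted p = 0.055) and ASAH1 (adjusted p = 0.080) without 1 of the shM14 libraries. HEXA, NEU1, TPP1, GUSB, GAA and MANBA did not pass, with changes from -0.11 to 0.14. GAA, whose promoter is printed above, had 4.72 and 5.45 RPKM in controls and 5.18 and 5.12 with shM14. LGMN, an asparagine-specific protease, stayed at 0.255 RPKM or less, with 4 reads in its lowest library.

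Of the 8 membrane and lipid export genes 4 rose and 2 fell in NB4. LAMP1, the most abundant glycoprotein of the lysosomal membrane, had 65.8 and 62.3 RPKM in the NB4 controls and 122 and 117 with shM14 (0.89, SE 0.05, adjusted p = 5.8e-04). The tetraspanin CD63 had 44.3 and 44.2 RPKM and then 79.8 and 75.9 (0.80, adjusted p = 6.2e-04). CD68, a LAMP family protein used as a macrophage marker, had 11.9 and 12.1 RPKM and then 17.0 and 15.5 (0.41, adjusted p = 0.0052). For these 3 genes the groups were far apart relative to the spread of the replicates. MCOLN1, the lysosomal calcium channel, rose by 0.21 (lost without any of 3 libraries, adjusted p up to 0.13), while LAMP2 (0.15, adjusted p = 0.076) and SCARB2 (0.02), the receptor that carries glucocerebrosidase, did not pass. NPC2, which hands cholesterol to NPC1 in the lumen, had 22.2 and 21.9 RPKM and then 17.7 and 17.9 (-0.30, adjusted p = 0.0061). NPC1, which moves that cholesterol out of the lysosome, had 8.33 and 9.12 RPKM and then 7.57 and 7.34 (-0.20, adjusted p = 0.041). The NPC1 call in NB4 was lost without any 1 of 3 libraries (adjusted p up to 0.17).

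Autophagy genes changed little in NB4. SQSTM1, the receptor p62 that links ubiquitinated cargo to autophagosomes, had 23.0 and 25.6 RPKM in controls and 28.7 and 27.8 with shM14 (0.21, adjusted p = 0.046). This call was lost without either shM14 library or without control replicate 1 (adjusted p up to 0.18). GABARAPL1, a ubiquitin-like protein coupled to autophagosome lipids, had 11.3 and 11.2 RPKM and then 13.4 and 13.3 (0.23, adjusted p = 0.013, lost without either shM14 library). Its relatives GABARAP (-0.07) and MAP1LC3B (-0.03) did not pass. MAP1LC3B and GABARAPL1 each have a near-identical copy in the genome, so their values are less certain. TFEB itself was at 1.66 and 1.86 RPKM in controls and 1.88 and 1.93 with shM14 (0.08, adjusted p = 0.32; 95% confidence interval -0.07 to 0.22).

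In MM6 no member passed the threshold, although CTSD had the largest change above 0 of the 51 genes in either line. Limma called 0 of 51 genes, against 0.0757% of all 11895 genes tested. At an unadjusted p under 0.05 there were 10 members (15% of all genes), and voom on recovered reads called NPC1 (lower, adjusted p = 0.030). With all 8 libraries in 1 model, which gives both lines 1 shared estimate of the spread, 6 members were higher (CTSA, CTSB, CTSD, CTSZ, PSAP and TFEB) and 2 lower (PPT1 and NPC1), where 10.2% of all genes were called. In the authors' deposited table CTSD and PSAP were higher and NPC1 lower in MM6 under an adjusted p of 0.05, as were 3.28% of all genes in either direction. With the replicate number as a block 10 members were higher and 3 lower, where 11.8% of all genes were called. The labels state no pairing, but deviations of MM6 libraries with the same number correlated at 0.69 across genes. The shM14 libraries lay above both controls in 18 members (19% of all genes) and below both in 4 (25.8%). The median change was 0.10 in log2, against -0.03 over all genes tested. This gap depended on the library: without shM14 replicate 1 the medians were 0.04 and 0.03. Without shM14 replicate 2 they were 0.18 and -0.10.

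**Figure D2:**
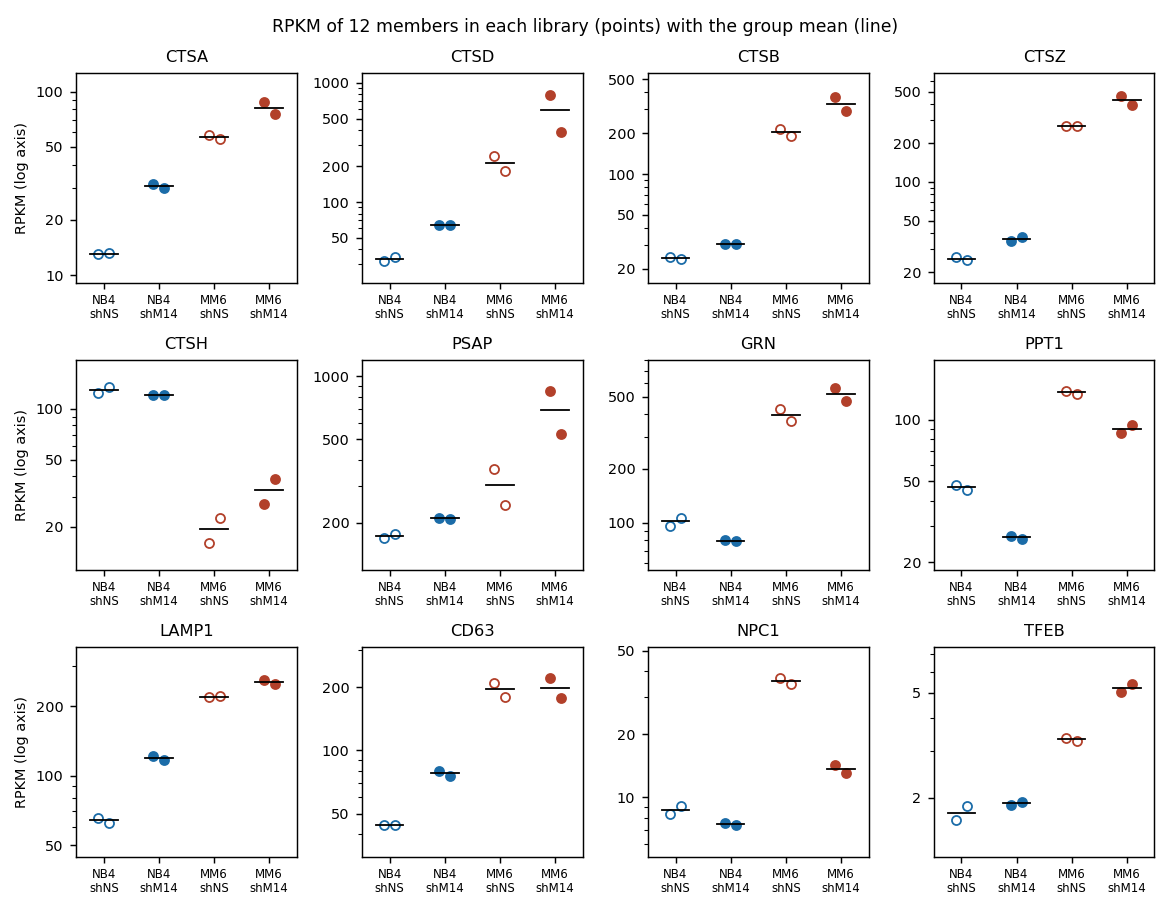
RPKM (log axis, a scale for each gene) of 12 members chosen after their values were seen; points are the 2 libraries of each group, lines the group means, open points shNS and filled points shM14. CTSA, CTSD, CTSB and CTSZ are higher with shM14 in both lines, PPT1 and NPC1 lower in both, and CTSD in MM6 spans 384 to 789 RPKM with shM14.

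CTSD had 245 and 182 RPKM in the MM6 controls and 789 and 384 with shM14, a log2 change of 1.38 (SE 0.36, adjusted p = 0.19). Both shM14 libraries were above both controls, but they differed from each other by more than the controls did. PSAP, the precursor of the saposins, which present sphingolipids to hydrolases, had 362 and 242 RPKM and then 849 and 529 (1.18, SE 0.30, adjusted p = 0.18). CTSB had 215 and 191 RPKM and then 371 and 290 (0.69, adjusted p = 0.18), and CTSZ 272 and 273 and then 462 and 396 (0.65, adjusted p = 0.16). CTSH had 16.2 and 22.7 RPKM and then 27.4 and 38.7 (0.73, adjusted p = 0.26). CTSA had 58.3 and 55.2 RPKM and then 88.0 and 75.2 (0.51, adjusted p = 0.21). All 6 genes had groups without overlap.

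The lowest change in MM6 was that of NPC1, from 37.0 and 34.7 RPKM to 14.2 and 13.1 (-1.33, SE 0.13, adjusted p = 0.060). The authors' deposited table has a log2 fold change of -1.36 for NPC1 in MM6 (adjusted p = 1.05e-05). PPT1 had 139 and 133 RPKM and then 86.0 and 94.0 (-0.59, adjusted p = 0.16). TFEB had 3.38 and 3.28 RPKM in controls and 5.01 and 5.39 with shM14 (0.52, adjusted p = 0.18), so that its groups were apart. V-ATPase genes lay near 0 in MM6, with a median of 0.07 and a range from -0.23 (ATP6V1E1) to 0.46 (ATP6V0A1). LAMP1 was at 0.21, CD63 at 0.02 and CD68 at -0.27, none of which passed. MAP1LC3B showed how uneven the replicates were: 13.5 and 7.58 RPKM in controls and 22.1 and 7.10 with shM14.

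Markers of monocytes and macrophages were higher with shM14 in NB4, as were most members. Of 14 listed markers 13 were in the tables. In NB4 9 could be tested and 8 rose (22.1% of all genes rose). The summed RPKM of the 13 went from 40.7 and 44.8 in controls to 137 and 141 with shM14. In MM6 0 of 13 passed (0.0757% of all genes), but 11 had shM14 libraries above both controls (19% of all genes). Their sum was 15587 and 10263 RPKM in controls and 26437 and 16355 with shM14, led by LYZ, S100A9 and S100A8. In each MM6 group the library with the higher marker sum also had the higher sum over the 8 cathepsins: 962 against 859 RPKM in controls and 1931 against 1321 with shM14. The cathepsin sums of replicates 1 and 2 kept the marker order in NB4 controls (261 and 271 RPKM) but not in NB4 shM14 (335 and 334 RPKM). The V-ATPase sums of MM6 replicates 1 and 2 had the opposite order in controls (771 and 862 RPKM) and the same order with shM14 (872 and 845 RPKM). CD14, the defining monocyte receptor, had 0.111 and 0.105 RPKM in NB4 controls and 0.977 and 0.699 with shM14, under the minimum for the test, and 14.7 and 12.2 RPKM and then 63.2 and 36.3 in MM6. In both lines its shM14 libraries lay above its controls. The part of these markers in the lysosomal changes was not tested. Of the 6 promyelocyte granule genes 1 rose and 4 fell in NB4 (22.1% and 25.2% of all genes). In MM6 0 passed, with 5 at an unadjusted p under 0.05 (15% of all genes). CTSG, a granule protease named as a cathepsin, had 41.9 and 44.9 RPKM in NB4 controls and 6.73 and 6.85 with shM14. PRTN3, another granule protease, had 46.1 and 44.1 RPKM and then 127 and 129.

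**Figure D3:**
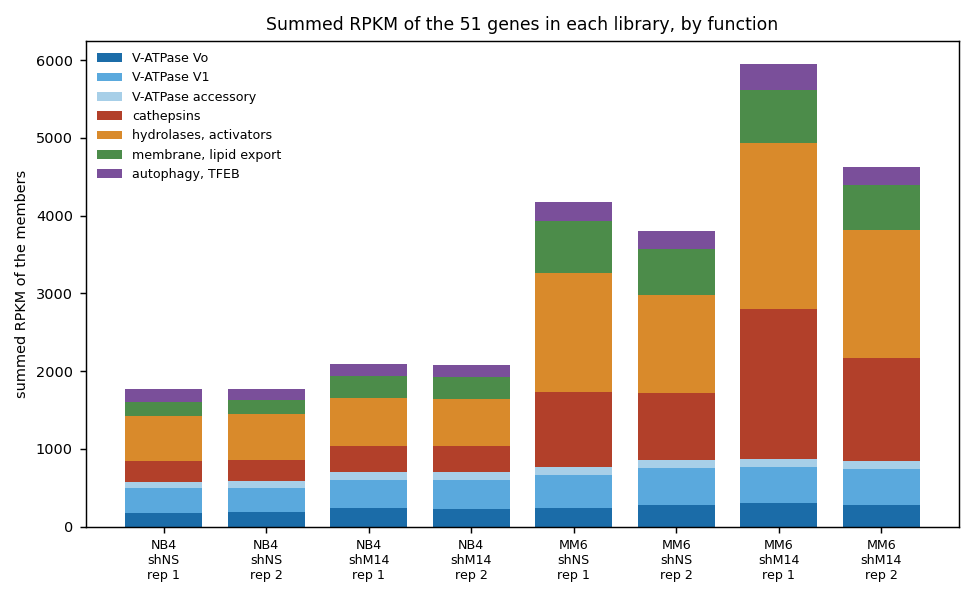
Summed RPKM of the 51 genes (bars from 0) in each of the 8 libraries, stacked by function. The NB4 libraries rise from 1768 and 1775 to 2090 and 2076, and the MM6 libraries from 4176 and 3798 to 5952 and 4621, where cathepsins and hydrolases make up the added part.

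Together the 51 genes took 0.44% of assigned reads in both NB4 controls and 0.528% and 0.525% in the shM14 libraries. In MM6 they took 1.09% and 0.977% in controls and 1.54% and 1.19% with shM14. The 4 genes with the largest gain in RPKM made up 80.3% of the net gain in MM6 (PSAP, CTSD, CTSZ and CTSB) and 50.5% in NB4 (LAMP1, PSAP, CD63 and CTSD). In NB4 a gain was spread over the pump, the cathepsins and the membrane proteins. In MM6 the sum of the V-ATPase genes was 1.05 times, that of the membrane proteins 0.997 times and that of the cathepsins 1.79 times the control value.

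Over both lines, with 1 shared effect of the hairpin beside the line, 7 members rose and 2 fell among 51. Of all 12804 genes tested 4.8% rose and 7.1% fell, 11.9% in all. This model shares its libraries with the tests within each line. It also gives both lines 1 shared estimate of the spread, although replicates were closer in NB4 than in MM6. CTSD had a common change of 1.15 (adjusted p = 0.016), CTSA of 0.84 (0.0092), CTSZ of 0.57 (0.0055), LAMP1 of 0.55 (0.036), CTSB of 0.51 (0.025), ATP6V0A1 of 0.49 (0.022) and ATP6V0D1 of 0.41 (0.032). PPT1 fell by 0.69 (adjusted p = 0.0032) and NPC1 by 0.77 (adjusted p = 0.0495). The calls of CTSA, CTSZ and PPT1 held without any single library. That of CTSD was lost without NB4 control replicate 1 (adjusted p = 0.052), and that of NPC1 without any of the 8. The other 4 calls were each lost without any single NB4 library, with adjusted p up to 0.11, and those of ATP6V0D1 and CTSB also without 2 of the MM6 libraries. When 1 NB4 library was left out, fewer members and fewer of all genes were called. The median common change was then 0.16 to 0.18, against -0.02 over all genes.

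Of 50 members that could be tested in both lines, 15 had shM14 libraries above the controls in both lines and 3 had them below in both. Over all 10647 such genes 11.6% were above in both and 15.1% below in both. The 3 lower genes were PPT1, NPC1 and ATP6V1A. A further 3 members went opposite ways without overlap, lower in NB4 and higher in MM6: GRN, CTSH and MANBA (8.71% of all genes went opposite ways). Their differences between lines did not pass the interaction test: 0.72 for GRN (adjusted p = 0.077), 0.83 for CTSH (0.17) and 0.47 for MANBA (0.17).

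The interaction, MM6 change minus NB4 change, was called for 0 members higher and for 2 lower of 51, against 1.53% and 1.39% of all genes (2.92% in all). At an unadjusted p under 0.05 there were 15 members (19.6% of all genes). Voom also called 0 higher and 2 lower, where 1.62% of all genes were called. The interaction fit gives both lines 1 shared estimate of the spread, although replicates were closer in NB4 than in MM6. The SE of a difference can then be under that of the MM6 change fitted alone, as it was for NPC1. LAMP1 rose less in MM6, with a difference of -0.69 (SE 0.11, adjusted p = 0.030). NPC1 was lowered more in MM6, with a difference of -1.13 (SE 0.12, adjusted p = 0.012). Both calls were lost when any NB4 library was left out, and very few of all genes were called in those fits. LAMP1 was also lost without either MM6 control. Over all alternative settings the difference ran from -0.72 to -0.65 for LAMP1 and from -1.19 to -1.07 for NPC1. Without MM6 shM14 replicate 1 the median difference of the members was -0.16, against 0.04 over all genes. CD63 (-0.78, adjusted p = 0.072) and CTSA (-0.65, adjusted p = 0.061) did not pass. For most members the interval was wide: that of MAP1LC3B ran from -1.24 to 1.89.

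The control libraries of the lines differed in most of the 51 genes. RPKM is scaled within each library, but the lines were deposited in separate tables. Of 50 genes tested 39 were higher and 4 lower in MM6 than in NB4, against 34.3% and 36.8% of all 12450 genes (71.1% in all). The median difference was 0.75 in log2, against -0.03 over all genes. Cathepsins stood furthest apart: CTSZ was 10.7 times, CTSL 8.59 times, CTSB 8.42 times and CTSD 6.38 times as high in MM6 by the means. CTSH was the reverse, with 125 and 134 RPKM in NB4 and 16.2 and 22.7 in MM6, a log2 difference of -2.69 (SE 0.17, adjusted p = 1.7e-04). ASAH1 was 8.02 times and GAA 6.59 times as high in MM6. The other 3 genes that were lower in MM6 were GLA (-0.50), GABARAPL1 (-0.86) and MAP1LC3B (-1.35). When either NB4 control was left out, calls of higher and of lower members were lost, and fewer of all genes were called. The median difference was 0.72 without NB4 control replicate 1 and 0.79 without replicate 2, against 0.03 over all genes in either fit.

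**Figure D4:**
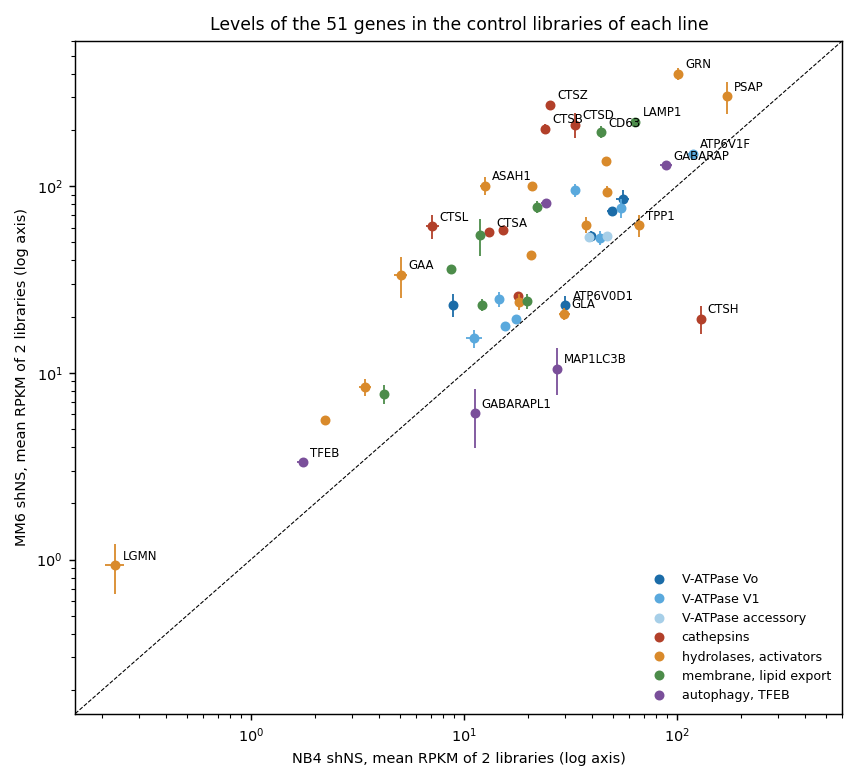
Mean RPKM of the 51 genes in the 2 control libraries of NB4 (x) and MM6 (y), both on log axes; lines span the 2 libraries and the dashed line marks equal values. Most genes lie above the line, CTSZ, CTSB and CTSD well above it, and CTSH lies far below.

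The order of levels also differed. In NB4 controls PSAP (168 and 177 RPKM), CTSH and ATP6V1F (125 and 113 RPKM) ranked highest, and the libraries of CTSH and ATP6V1F overlapped. In MM6 controls GRN (431 and 368 RPKM), PSAP and CTSZ ranked highest; both GRN libraries lay above both PSAP libraries (362 and 242 RPKM), and CTSZ (272 and 273 RPKM) lay inside the range of PSAP. V-ATPase genes were more alike between the lines, from -0.38 (ATP6V0D1) to 1.49 (ATP6V1B2). TFEB and SMPD1 were low in both lines, at or under 5.63 RPKM in all controls.

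Other genes of the pathway, 84 that are not among the 51, were taken from lists drawn up by function, and 82 were in the tables. Of 71 tested in NB4 26 rose and 20 fell (22.1% and 25.2% of all genes), with a median of -0.02. Other hydrolases and cofactors rose in 12 of 21 and fell in 2, with CLN3 at 0.56 (11.0 to 16.7 RPKM by the means) and ARSB at 0.44 among those that rose. Receptors and enzymes of the mannose 6-phosphate sorting route rose in 2 of 5, GNPTAB (0.39) and IGF2R (0.35). Other V-ATPase isoforms rose in 1 of 4 and fell in 2: ATP6V0A2 rose (0.20), and TCIRG1 (-0.21) and ATP6V1E2 (-0.34) fell. Other cathepsins fell in 3 of 3, with CTSW, a protease of lymphoid cells, going from 83.0 to 48.7 RPKM (-0.76).

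The remaining lists of NB4 went both ways or down. Autophagy receptors fell in 5 of 6, led by the mitophagy receptor BNIP3 (164 to 101 RPKM, -0.69) and CALCOCO2 (-0.43), with BNIP3L at -0.24 and OPTN at -0.23. Genes of autophagosome initiation and conjugation had 7 of 20 higher and 5 lower, with ATG9A at 0.37, WIPI1 at 0.35, ATG13 at -0.36 and ATG14 at -0.37. TFE factors and the mTORC1 switch of the lysosome had 4 of 12 higher and 3 lower, with LAMTOR5 at 0.31, LAMTOR4 at 0.30, RRAGD at -0.45 and RRAGB at -0.46. Of all genes tested in NB4 22.1% rose and 25.2% fell. The falls among initiation and conjugation genes, and among TFE factors and the mTORC1 switch, were near that share.

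In MM6 limma called 0 of the 76 genes tested, with 18 at an unadjusted p under 0.05 (15% of all genes). TAX1BP1, another autophagy receptor, went from 84.0 and 73.1 RPKM to 38.5 and 40.3 (-0.97, adjusted p = 0.087), and its difference between lines was called (-0.85, adjusted p = 0.028). Over both lines 9 of 77 rose and 7 fell (4.8% and 7.1% of all genes). CLN3 (0.55), NAGLU (0.43) and GALC (0.50) rose among the hydrolases and cofactors, and CALCOCO2 (-0.43) and OPTN (-0.42) fell among the receptors.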

How the data were processed

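Directional poly(A) libraries of NB4 and MM6 used 100 ng of RNA each and 50-base single reads, per the labels' protocols. Aligner, counter, genome build, strand setting and the authors' statistical test: all not given in the sources used here, so values of overlapping genes and close paralogs are less certain. The authors deposited RPKM per library; the headers do not name this unit, which was worked out from the values. The signal columns are the authors' group means of reads divided by size factors. The ratio column is the deposited fold change, and the log2 column is its log2, per the file headers. Each deposited p-value, raw or adjusted, is the authors' own.

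RPKM and group means resolved into whole reads for 100% of values (tolerance 0.01), which gave the depth. Genes with at least 1 RPKM in at least 2 libraries of a fit were kept. Limma 3.58.1 (R 4.3.3) was run on log2(RPKM + 1), with Benjamini-Hochberg adjustment over all genes and a threshold of 0.05. A change on this scale understates that of low genes. SE is the moderated standard error, and intervals are 95%. Each line was fitted alone; the effect common to both lines, the interaction and the control difference had fits of their own. The fits were tested on simulated data with 200 changed genes and a spread set below that of the MM6 replicates. Of the calls 13.7% (NB4) and 10.3% (MM6) were false. Among genes with a mean of at least 100 reads, 0% and 0.55% were false. All members but LGMN had over 100 reads in every library. All 51 members are named; other lists give up to 4 genes with the smallest p, of which some are not reported here, and library values go to called members that change most in each group. The members and lists were chosen with earlier results of these data known. Alternatives were pseudocount, filter, scaling, variance trend, replicate block, all 8 libraries in 1 model and leaving out each library; voom on recovered reads was added after the values were seen. Python 3.11.15, pandas 2.3.3, numpy 2.4.6 and matplotlib 3.10.9 were used for summaries, plots and promoter letters.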

Additional observations from a re-analysis of the deposited data

Results flagged for a closer look

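The changes of LAMP1 and NPC1 with shM14 differed between the lines by the interaction test of limma over all 8 libraries. That test gives both lines 1 shared estimate of the spread. It called 3.92% of the members and 2.92% of all genes. Both calls were lost when any NB4 library was left out. The LAMP1 call was also lost without either MM6 control and with a pseudocount of 0.1. For LAMP1 the change in MM6 minus that in NB4 was -0.69 in log2 (adjusted p = 0.030): 0.89 in NB4 and 0.21 in MM6. For NPC1 it was -1.13 (adjusted p = 0.012): -0.20 in NB4 and -1.33 in MM6. Groups of 2 libraries are too small to look for single libraries that stand apart.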

How the results depend on the processing

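Counts are of members called higher and lower. NB4 (29 and 4) gave 9 and 1 with all 8 libraries in 1 model, and 25 to 33 and 3 to 4 under the other settings with all 4 libraries. Leaving out 1 library gave 16 to 30 higher. MM6 (0 and 0) gave 6 and 2 with all 8 libraries in 1 model and 0 and 1 with voom on recovered reads, an alternative added after the data were seen. Over both lines (7 and 2), 1 was lower with a pseudocount of 0.1, without a filter and with median-of-ratios scaling. Leaving out 1 library always lost the call of NPC1 and gave median changes of 0.16 to 0.20. The interaction (0 and 2) gave 1 lower with a pseudocount of 0.1 (1.59% of all genes called). Both of its calls were lost when any NB4 library was left out. With 1 library left out its median over the members ran from -0.16 to -0.02. The control lines (39 and 4) lost calls in both directions when either NB4 control was left out, with medians of 0.72 and 0.79. An arm left with 1 library was assumed to vary like the others.

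With the replicate number as a block, MM6 gave 10 higher and 3 lower (11.8% of all genes called), both lines together 6 and 1 (11.3%), and the interaction 4 and 5 (8.93%), while NB4 gave 28 and 3 and the control lines 37 and 5. The interaction then also called CTSA, CTSH, PSAP, GRN, LGMN, CD63 and CD68, and ATP6V0D1, LAMP1 and NPC1 lost their calls over both lines. The labels state no pairing. Deviations of libraries with the same number correlated at 0.69 across genes in MM6, 0.068 in NB4 and 0.0088 between the control lines, over 2 pairs each. No member reversed its direction of a called change. The causes of these shifts were not tested. LGMN (4 to 127 reads) is the member that depth limits most.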

Other observations

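ELANE, a granule protease gene picked here after its values were seen, had 0.0462 and 0.0387 RPKM in the NB4 libraries numbered 1 (shNS and shM14) and 6.83 and 6.45 RPKM in those numbered 2. It had 1599 to 2410 RPKM in MM6. Among the monocyte and macrophage markers, S100A8 had 4 and 10 reads in the NB4 libraries numbered 1 and 22 and 29 in those numbered 2. VCAN had 3 and 11 reads and then 14 and 26. S100A9 differed in this way in the controls (9 and 36 reads) but not with shM14 (52 and 54). These markers were also picked after their values were seen, and the cause was not tested.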
